A study of Mus musculus with 6 samples.

Results

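The vitamin K cycle and the genes that join it to the TAM receptor kinases were examined after knockdown of Gch1 in BV2, an immortalised microglial cell line of the mouse. A rule named 7 genes: the vitamin K epoxide reductases Vkorc1 and Vkorc1l1, the carboxylase Ggcx, the ligands Gas6 and Pros1, and the receptors Axl and Mertk. Of these, 6 had a row among the 12327 genes of the deposited table, and all 6 entered the test. Gas6 was not analysed here, so the ligands are represented by Pros1 alone. The list was chosen by a measured value, the lower FPKM of Vkorc1 after knockdown. The values of Vkorc1 in this contrast are therefore given as a description with no test.

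The GCH1-KD group held 3 libraries of cells that received an adenovirus with a short hairpin RNA against GCH1 (Ad-shGCH1) for 48 hours. The negative control group held 3 libraries of the same subline (Ad-NC). The labels do not make clear whether the negative control cells received a virus, so an effect of the hairpin and one of infection cannot be told apart. Total RNA was depleted of ribosomal RNA, made into stranded libraries and sequenced. Nothing in the labels ties the libraries of a group to separate cultures, and p-values then cover the spread between these libraries alone, which may be technical. Values are FPKM (fragments scaled to transcript length and library depth), a level per length that allows genes to be compared within a library.

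The enzyme gamma-glutamyl carboxylase turns glutamate residues of a small family of proteins into gamma-carboxyglutamate (Gla), and uses the reduced form of vitamin K as its cofactor. Each round leaves vitamin K epoxide, which the epoxide reductases, the targets of warfarin, return to the reduced form. Among the Gla proteins, GAS6 and protein S bind phosphatidylserine on dying cells through their Gla domain and bridge it to the TAM receptors (TYRO3, AXL and MERTK). In microglia and macrophages these receptors serve the uptake of dying cells and restrain inflammatory signalling.

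The targeted gene Gch1 was at 3.20, 2.93 and 3.43 FPKM in the GCH1-KD libraries, against 6.89, 7.22 and 7.23 FPKM in the negative control libraries, so all 6 libraries went with their labels. The estimated depth was 6.32 to 7.61 Gb of aligned bases (Gb, gigabases) in the GCH1-KD libraries and 5.25 to 5.58 Gb in the negative controls, without overlap. Of 15 microglia and macrophage markers, 12 had a row, and 0 of them passed the test, which 0.0818% of all genes tested passed. The lysosomal marker Cd68 was at 448 to 471 FPKM in GCH1-KD and 478 to 498 FPKM in negative control libraries. The homeostatic microglial marker Tmem119 was near the lower limit of the table in both groups, at 0.528 to 0.689 FPKM in GCH1-KD and 0.489 to 0.652 FPKM in negative control libraries. Aif1, the gene of the macrophage protein IBA1, had the smallest p of the list and lay the other way from Cd68, at 2.13 to 2.80 FPKM in GCH1-KD and 1.73 to 2.20 FPKM in negative control libraries (log2 fold change 0.24, BH adjusted p = 0.417 by limma). Cx3cr1 was at 0.430 to 0.541 FPKM in GCH1-KD and at 0.597, 0.3 and 3.16 FPKM in negative control libraries. Itgam varied within both groups, at 7.10 to 23.0 FPKM in GCH1-KD and 7.22 to 31.1 FPKM in negative control libraries. P2ry12, Sall1 and Fcrls were not analysed here. Of the lists of other cell types, hepatocytes and neurons had 0 members with a row, endothelial cells 2 (Vwf and Flt1), and astrocytes, oligodendrocytes, fibroblasts and lymphocytes 1 each. Of these 6 genes, 0 passed.

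Vkorc1 was lower in every GCH1-KD library, and of the 5 other members 0 passed the test in limma, or had an unadjusted p under 0.05. Of all 12222 genes tested, 0.0818% passed and 1380 had an unadjusted p under 0.05, so 0 of 5 says little about the members. Vkorc1 (ENSMUSG00000096145.2), the main epoxide reductase of the cycle, lies on the minus strand of chromosome 7 from 127893063 to 127895617 (GRCm38, GENCODE M21). Its paralog Vkorc1l1 (ENSMUSG00000066735.8), which can also reduce the epoxide, lies on the plus strand of chromosome 5 from 129941970 to 129986692. To set the start of Vkorc1 beside that of its paralog, the upstream sequence of both is given from RefSeq's GRCm38.p6, read toward the gene. For Vkorc1 it is chr7:127895618-127895867 on the minus strand, 250 bases. For Vkorc1l1 it is chr5:129941859-129941969 on the plus strand, the 111 bases before the first annotated start. Capitals mark CCAAT and GGGCGG on either strand.
Vkorc1: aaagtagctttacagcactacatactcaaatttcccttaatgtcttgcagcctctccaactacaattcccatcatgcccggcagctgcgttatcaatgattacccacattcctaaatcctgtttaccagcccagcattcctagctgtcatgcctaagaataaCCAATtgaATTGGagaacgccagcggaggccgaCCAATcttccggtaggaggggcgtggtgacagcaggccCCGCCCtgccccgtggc
Vkorc1l1: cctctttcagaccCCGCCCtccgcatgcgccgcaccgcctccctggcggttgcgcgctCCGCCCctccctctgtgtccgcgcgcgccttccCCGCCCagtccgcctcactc

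The Vkorc1 stretch held 3 matches to CCAAT and 1 to GGGCGG. At least 1 match to CCAAT was present in 33.8% of the 32851 RefSeq mouse promoters over the same 250 bases, and at least 1 to GGGCGG in 32.7%. The Vkorc1l1 stretch held 3 matches to GGGCGG and 0 to CCAAT. In the first 111 of their 250 bases, 11.7% of promoters hold at least 1 match to GGGCGG and 15% at least 1 to CCAAT. The Vkorc1l1 stretch is likewise the first 111 bases of its own RefSeq promoter sequence, cut at its first annotated start. Positions within the promoter sequence are therefore the same, while the distance from the first annotated start may differ. The motifs did not overlap each other. GC content was 51.6% in the Vkorc1 stretch and 75.7% in that of Vkorc1l1, against a promoter median of 52.4%. TATAAA and CACGTG, also searched on both strands, had 0 matches in either stretch. These are matches of letters, not sites of binding.

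Vkorc1 stood at 9.43, 10.5 and 11.0 FPKM in the GCH1-KD libraries, against 18.2, 20.7 and 18.8 FPKM in the negative control libraries. The groups did not overlap, and the lowest negative control was 1.65 times the highest GCH1-KD library. The means were 10.3 ± 0.814 FPKM in GCH1-KD and 19.3 ± 1.31 FPKM in negative control libraries (SD, n = 3 each), or 53.6% of control. The log2 fold change, GCH1-KD minus negative control on log2(FPKM + 1), was -0.84. In bulk RNA, fewer cells with the transcript and less of it per cell cannot be told apart. With limma and a Benjamini-Hochberg (BH) adjusted p of 0.05 as threshold, 0.0818% of all genes were called, with 0.0573% called lower and 0.0245% called higher. Vkorc1 was among them, which is how the list came about, and nothing is read from that call. Just inside the threshold lay Mir17hg at a log2 fold change of 0.67, and just outside it the cyclin gene Ccnd1 at -0.26. Vkorc1 was not among the called genes without GCH1-KD replicate 2, nor in either fit with the replicate number as a block, where 0 genes were called.

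Vkorc1l1 spread widely among the GCH1-KD libraries and little among the negative controls. It was at 10.8, 4.82 and 7.30 FPKM in the GCH1-KD libraries, against 5.49, 5.34 and 5.44 FPKM in the negative control libraries. GCH1-KD replicates 1 and 3 lay above all controls and replicate 2 below all of them. The highest GCH1-KD value was 2.24 times the lowest, while in the controls that ratio was 1.03. Among 11224 genes with a mean of at least 1 FPKM, 1.30% varied as widely within GCH1-KD and 1.35% within the negative controls, and the median ratio was 1.10 and 1.12. The log2 fold change was 0.37 (SE 0.22, 95% interval -0.16 to 0.90, BH adjusted p = 0.556 by limma). It was 0.11 without GCH1-KD replicate 1 and 0.62 without GCH1-KD replicate 2, and it did not pass in either fit, although without GCH1-KD replicate 2 its unadjusted p was 0.0048. The depth of GCH1-KD replicate 1 was the highest of the 6 libraries, and the part of depth in this spread was not tested.

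Taken per library, the balance between the reductases differed between the groups. The ratio of Vkorc1 to Vkorc1l1 in FPKM was 0.874, 2.18 and 1.51 in the GCH1-KD libraries, against 3.32, 3.88 and 3.46 in the negative control libraries. In GCH1-KD replicate 1 the paralog exceeded Vkorc1, and in the other 5 libraries Vkorc1 was the more abundant. The 2 transcripts summed to 20.2, 15.3 and 18.3 FPKM in GCH1-KD, against 23.7, 26.1 and 24.3 FPKM in negative control libraries. The sum stayed below every negative control in each GCH1-KD library. It was highest where Vkorc1l1 was highest, but Vkorc1l1 is part of the sum, so nothing is read from that. Both quantities also contain Vkorc1, which was picked for its lower level, so they carry no test.

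**Figure D1:**
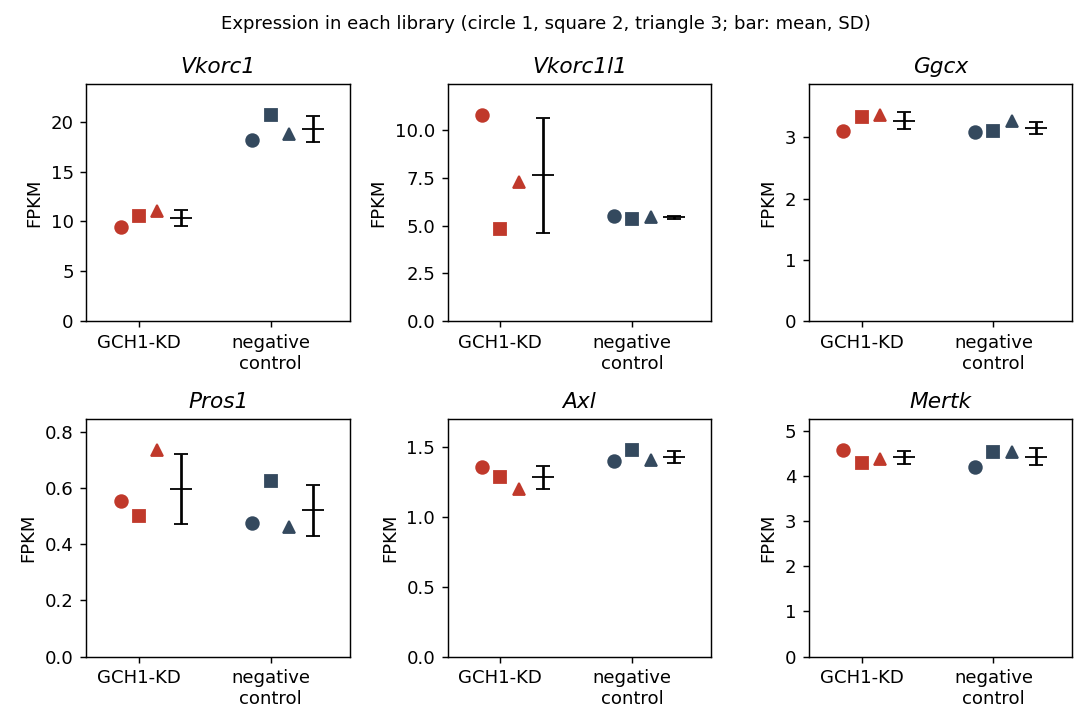
FPKM of the 6 measured genes (vertical axes from 0) in the 3 GCH1-KD libraries, left, and the 3 negative control libraries, right, with bars for the mean and SD. The groups are apart for Vkorc1 (9.43 to 11.0 against 18.2 to 20.7 FPKM), and the GCH1-KD libraries are spread widely for Vkorc1l1.

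**Figure D2:**
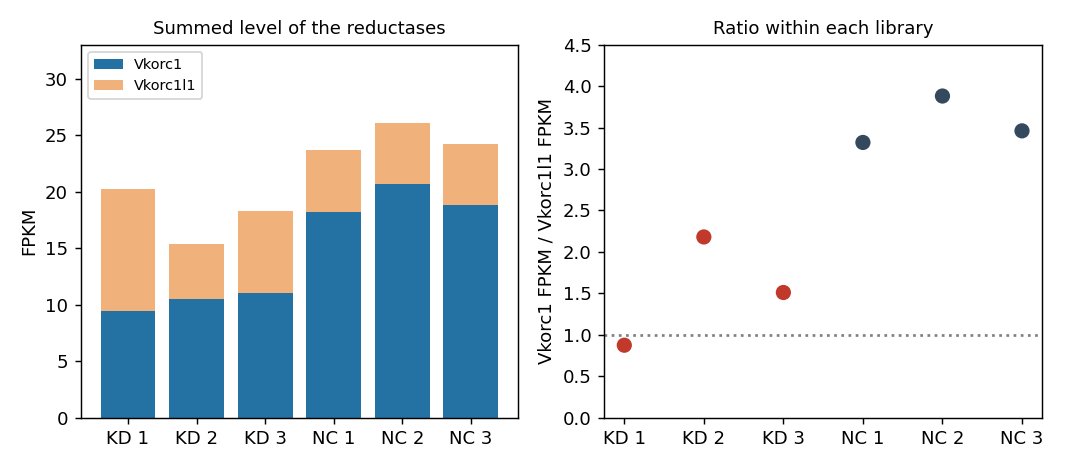
Left, stacked FPKM of Vkorc1 and Vkorc1l1 in each GCH1-KD (KD) and negative control (NC) library; right, their ratio within each library, with a dotted line at a ratio of 1. GCH1-KD replicate 1 alone lies below the line, at 0.874, and the negative controls lie at 3.32 to 3.88.

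The carboxylase that uses the recycled vitamin showed no change that passed the test. Ggcx (ENSMUSG00000053460.8; chromosome 6, 72414308 to 72430712, plus strand) was at 3.11, 3.33 and 3.37 FPKM in GCH1-KD, against 3.08, 3.11 and 3.26 FPKM in negative control libraries. The ranges overlapped. Its log2 fold change was 0.04 (SE 0.05, BH adjusted p = 0.801 by limma), and the 95% interval of -0.09 to 0.17 leaves room for changes of up to 1.12-fold on that scale.

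The measured ligand was the least abundant of the 6 genes. Pros1, which encodes protein S (ENSMUSG00000022912.8; chromosome 16, 62854307 to 62929346, plus strand), was at 0.554, 0.5 and 0.735 FPKM in GCH1-KD, against 0.475, 0.625 and 0.460 FPKM in negative control libraries. The groups overlapped, with a log2 fold change of 0.07 (SE 0.08, BH adjusted p = 0.770 by limma, 95% interval -0.12 to 0.26). With its longest transcript these levels correspond to an estimated 11.3 to 15.3 kb of aligned sequence in GCH1-KD and 8.39 to 10.8 kb in negative control libraries. Among the 6 genes this was the thinnest coverage. The interval holds changes of up to 1.20-fold in FPKM + 1. At these levels the added 1 exceeds the FPKM itself, so changes in FPKM may be larger. By the means Pros1 was at 114.7% of control, and with 0.1 added its log2 fold change was 0.16.

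Both receptors were present at lower levels than the reductases. Axl (ENSMUSG00000002602.16; chromosome 7, 25757273 to 25788705, minus strand), a receptor of GAS6, was at 1.36, 1.29 and 1.20 FPKM in GCH1-KD, against 1.40, 1.48 and 1.41 FPKM in negative control libraries. The groups did not overlap, but they nearly touched. Axl was at 89.8% of control with a log2 fold change of -0.09 (SE 0.06, BH adjusted p = 0.586 by limma, 95% interval -0.23 to 0.05). It was the 1 of the 5 members besides Vkorc1 whose groups did not overlap, against 18.4% of all genes tested in either direction with 8.36% lower and 9.99% higher.

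Mertk (ENSMUSG00000014361.5; chromosome 2, 128698956 to 128802894, plus strand), the receptor of GAS6 and protein S best known for uptake of dying cells, showed the flattest profile. It was at 4.58, 4.30 and 4.39 FPKM in GCH1-KD, against 4.21, 4.53 and 4.54 FPKM in negative control libraries. The ranges overlapped almost fully. Its log2 fold change was 0.00 (SE 0.05, BH adjusted p = 0.996 by limma), with a 95% interval of -0.13 to 0.13. Without single libraries it ranged from -0.03 to 0.02.

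Axl was also set against Mertk within each library. The ratio of Axl to Mertk in FPKM was 0.296, 0.301 and 0.274 in GCH1-KD, against 0.332, 0.327 and 0.310 in negative control libraries. The groups did not overlap and differed by -0.16 in the log2 of the ratio. That ratio is of FPKM with nothing added, unlike the fold changes on log2(FPKM + 1) above. With 0.1 in place of 1 added, the log2 fold change was -0.15 for Axl and 0.00 for Mertk. A two-sided exact permutation test of the log2 ratio gave p = 0.1. That is the smallest value open to 3 against 3 libraries, so 0.05 is out of reach here. This was the only ratio tested.

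The order of the levels was the same in both groups by their means: Vkorc1, Vkorc1l1, Mertk, Ggcx, Axl, Pros1. In the GCH1-KD libraries the ranges of Vkorc1 and Vkorc1l1 overlapped, and all other neighbours in that order were apart. In the negative control libraries every neighbour was apart, and Vkorc1l1, at a mean of 5.42 FPKM, came next above Mertk, at 4.43 FPKM.

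Within 50 kb of Vkorc1, 5 of 10 annotated genes had a row, and 0 of these passed in limma or had an unadjusted p under 0.05. Bckdk, whose start lies closest to that of Vkorc1 among these 5, encodes the kinase of branched-chain ketoacid dehydrogenase. It was at 10.1, 14 and 10.4 FPKM in GCH1-KD, against 14.1, 14.9 and 12.4 FPKM in negative control libraries (log2 fold change -0.26, SE 0.12, BH adjusted p = 0.486 by limma). The groups overlapped through GCH1-KD replicate 2. On the log2 scale the zinc finger genes Zfp646 and Zfp668 changed by -0.10 and 0.06, the acetyltransferase gene Kat8 by -0.02 and the syntaxin gene Stx4a by -0.12. Gm21974, a gene on the same strand that shares 2392 bases of its span with Vkorc1, was not analysed here. The strand setting is not given in the sources used here, and how the authors divided reads between overlapping genes is not given either, so the level of Vkorc1 is uncertain to that extent. Vkorc1l1 also holds Gm42986 and Gm43482 within its span on its own strand, at log2 fold changes of 0.10 and 0.04. Around the other members, 0 of the 15 genes tested passed, and 2, Vamp8 near Ggcx and Tmem87b near Mertk, had an unadjusted p under 0.05. Of all 12222 genes tested, 0.0818% passed and 1380 had an unadjusted p under 0.05, so nothing is read from these counts of neighbours.

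The genes whose profile over the 6 libraries was most like that of Vkorc1, by root mean square distance between log2(FPKM + 1) profiles set to their own control mean, were Gch1 (0.115), Tmem230 (0.119), Zfp28 (0.175), Qdpr (0.180) and Pop5 (0.236). They were sought among 11224 genes. Tmem230, an endosomal membrane protein gene, was at 5.38, 4.70 and 4.97 FPKM in GCH1-KD, against 10.4, 10.6 and 9.52 FPKM in negative control libraries. Qdpr, which recycles the cofactor BH4 whose synthesis Gch1 begins, was at 14.3, 13.6 and 15.3 FPKM in GCH1-KD, against 22.6, 23.1 and 21.7 FPKM in negative control libraries. Their groups, like those of Zfp28 and Pop5, are apart because the genes were picked for likeness to Vkorc1. Zfp28 was at 0.913, 0.761 and 1.58 FPKM in GCH1-KD, against 2.57, 2.33 and 2.47 FPKM in negative control libraries. Pop5 was at 2.63, 2.27 and 2.48 FPKM in GCH1-KD, against 3.80, 3.89 and 4.98 FPKM in negative control libraries. Gch1, Tmem230 and Qdpr were among the called genes (BH adjusted p = 0.00542, 0.0074 and 0.0131 by limma). Zfp28 and Pop5 were not (BH adjusted p = 0.236 and 0.174 by limma). Since the genes were picked for likeness to Vkorc1, nothing is read from these calls. For Vkorc1l1 the nearest were Gm37376, Atp6ap1 and Echdc1, at distances of 0.124 to 0.148. Atp6ap1, a subunit of the vacuolar proton pump, was at 40.5, 26.3 and 29.2 FPKM in GCH1-KD, against 24.6, 26.4 and 25.8 FPKM in negative control libraries, with GCH1-KD replicate 1 highest as in Vkorc1l1. Flat profiles have many close neighbours: Psmb8, Psma7 and Bcat1 for Ggcx (0.0127 to 0.0152), Rabl3, Sypl and Polr3b for Pros1 (0.0226 to 0.0289), Med13l, Srgap2 and Dhx30 for Axl (0.0168 to 0.0190) and Osbpl9, Irgm2 and Stk4 for Mertk (0.00861 to 0.0140).

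In the wider vitamin K list, 11 genes were measured, and besides Vkorc1, whose call follows from the choice of the list, 0 passed. Of the 11, 8 were above control, and over all 12222 genes 6476 were above and 5746 below. The median log2 fold change was 0.04, against 0.01 over all 12222 genes. P4hb, the protein disulfide isomerase proposed to pass electrons to the epoxide reductase, was at 134, 127 and 133 FPKM in GCH1-KD, against 122, 120 and 120 FPKM in negative control libraries. The groups did not overlap, but the log2 fold change of 0.12 did not pass (SE 0.03, BH adjusted p = 0.308 by limma). Tmx1, a membrane thioredoxin proposed for the same task, was at 0.15 on the log2 scale with overlapping groups. Aifm2, which can also reduce vitamin K, was at -0.04. Calu, a calcium-binding protein reported to inhibit the carboxylase, was at 0.22 with overlapping groups. Its negative control replicate 1 was low, at 15.5 FPKM against 22.5 and 26.4 FPKM in replicates 2 and 3. Nqo1 was not analysed here.

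Of 16 Gla protein genes, 7 had a row and 0 passed. The most abundant was F7, coagulation factor VII, far above Pros1 in the same libraries. It was at 44.3, 38.7 and 42.2 FPKM in GCH1-KD, against 36.7, 37.6 and 38.0 FPKM in negative control libraries. The groups did not overlap, and the log2 fold change was 0.15 (SE 0.05, BH adjusted p = 0.379 by limma). The membrane Gla protein gene Prrg4 followed at 22.2 ± 0.250 FPKM in GCH1-KD and 21.5 ± 1.70 FPKM in negative control libraries (SD, n = 3 each). F10, Prrg1 and Prrg2 changed by 0.18, 0.15 and -0.13 on the log2 scale with overlapping groups. In all, 6 of the 7 genes were above control, at a median of 0.07 on the log2 scale. Over all 12222 genes 6476 were above control, at a median of 0.01, and 0.0818% passed.

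Among TAM receptors and other genes that recognise phosphatidylserine, 13 of 20 had a row, 10 were below control, and 0 passed (median log2 fold change -0.05). Over all 12222 genes 5746 were below control, the median was 0.01 and 0.0818% passed. Tyro3 was not analysed here. Mfge8, a bridging protein that links phosphatidylserine to integrins and carries no Gla domain, was at 61.2, 60.5 and 60.0 FPKM in GCH1-KD, against 66.5, 62.6 and 62.6 FPKM in negative control libraries. The groups were apart, with a log2 fold change of -0.08 (SE 0.04, BH adjusted p = 0.495 by limma). Its integrin partners Itgav and Itgb5 were at -0.09 each, and the lipid receptor gene Cd300a at 0.09. Of 8 genes for exposure of phosphatidylserine 0 passed, with a median log2 fold change of 0.02. Among them Atp11a was at -0.06 and Nptn at 0.04. Tmem30a, a flippase subunit, was at 0.27 with overlapping groups. Its negative control replicate 3 was low, at 17.3 FPKM against 25.4 and 28.6 FPKM in replicates 1 and 2.

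In engulfment signalling downstream of the receptors, 15 of 20 genes were below control and 0 passed (median log2 fold change -0.04). Over all 12222 genes 5746 were below control, the median was 0.01 and 0.0818% passed. The list includes Mertk. Rac2, a small GTPase of the actin cytoskeleton, was at 74.4, 77.4 and 79.9 FPKM in GCH1-KD, against 85.3, 82.2 and 83.4 FPKM in negative control libraries. The groups were apart, with a log2 fold change of -0.11 (SE 0.04, BH adjusted p = 0.373 by limma). The engulfment adaptor Elmo2 was at -0.10, Rac1 at 0.10 and the lipid transporter Abca1 at -0.08. Grb2, picked out after its values were seen, was at 49.9, 24.3 and 47.4 FPKM in GCH1-KD, against 46.5, 46.7 and 47.4 FPKM in negative control libraries, with GCH1-KD replicate 2 alone apart.

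The lists around the receptors also held 0 genes that passed. Of all 12222 genes 0.0818% passed, 5746 lay below control and 6476 above, at a median log2 fold change of 0.01. Over all 8 lists the genes besides Vkorc1 with an unadjusted p under 0.05 in limma were P4hb, F7, Rac2, Elmo2 and Rac1, while 1380 of all 12222 genes had one. In the feedback on cytokine signalling 6 of 8 genes lay below control (list median -0.04 on the log2 scale), with Ifnar2, a chain of the interferon receptor that TAM receptors work through, at -0.10, and Traf3, Jak1 and Traf6 at -0.07, -0.05 and 0.06. For receptor shedding 3 genes were measured. Adam17, a protease that releases the extracellular part of MERTK, was at 34.7, 33 and 33.7 FPKM in GCH1-KD, against 32.5, 34.8 and 19.7 FPKM in negative control libraries, where replicate 3 was low. Adam10 was at -0.02 and Rhbdf2 at -0.05 on the log2 scale. Of 8 transcriptional regulators 6 lay above control (list median 0.01 on the log2 scale). Ppard was at -0.11, Maf at 0.12 and the liver X receptor gene Nr1h3 at 0.07. Rxra encodes the partner of the nuclear receptors that Ppard and Nr1h3 encode. It was at 12, 25.5 and 28.0 FPKM in GCH1-KD, against 12.6, 29.3 and 13.4 FPKM in negative control libraries. The values of Rxra thus split within both groups.

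**Figure D3:**
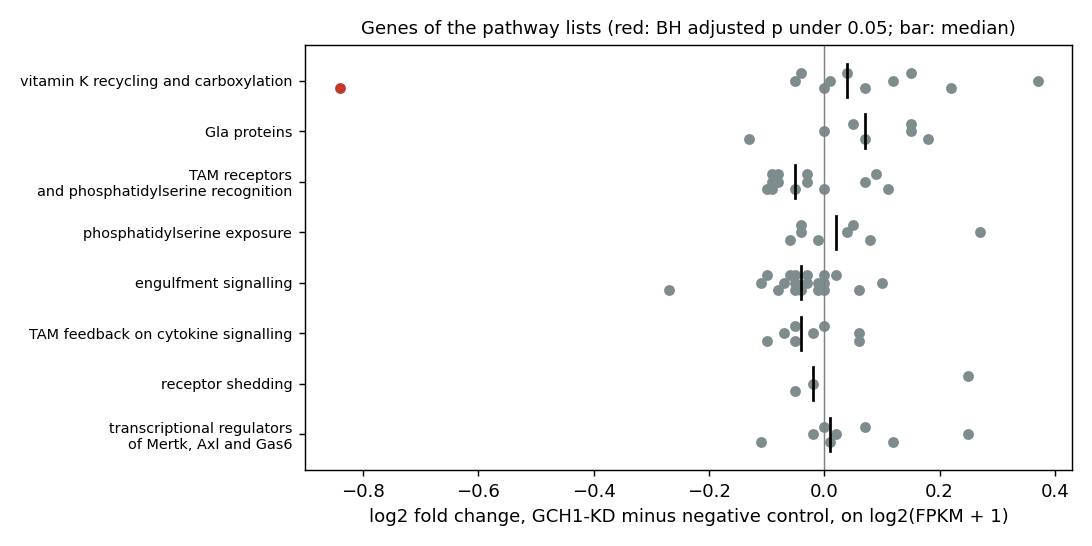
Log2 fold change, GCH1-KD minus negative control, of each measured gene (points) in the 8 pathway lists (rows), with the list median as a black bar. Red marks a gene that passed the BH adjusted threshold. The single red point is Vkorc1 at -0.84, whose call follows from the choice of the list, so nothing is read from it. The medians lie between -0.05 and 0.07.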

How the data were processed

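The deposited table gives FPKM that the authors computed, 1 column per library. Its unit is not stated and was read from the values, which are not whole and sum to 224291 to 230292 per library. HISAT2, StringTie and edgeR appear in the submitters' processing notes, with no version or role given, as does the human build hg38, although the identifiers are mouse genes. In each row at least 1 group mean was 0.501 FPKM or more. Depth was estimated from genes with 1 transcript, where FPKM times length times depth should give a whole number of aligned bases. The depth that came closest to whole numbers was taken. In the 600 lowest of these genes per library, 68.2% to 72.0% lay within 0.1 of a whole number. Evenly spread values would give 20.0%, but the depth was fitted on these same genes, so that is no chance level for it.

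Symbols and coordinates come from GENCODE M21 (12300 of 12327 identifiers matched without version). limma 3.58.1 in R 4.3.3 was fitted with a mean-variance trend on log2(FPKM + 1) for the 12222 genes that reached 0.5 FPKM in 3 or more libraries, with no covariate and Benjamini-Hochberg adjustment over all of them. The fit was checked on simulated data. That check required recovery of changes of known size and set no limit on false calls. Named genes are the members, up to 4 genes of each list by smallest p, genes within 50 kb of Vkorc1, and the 5 profiles nearest to Vkorc1 or 3 nearest to another member. Other genes stand for a list's makeup or abundance and were chosen with values known. Members and lists were chosen with earlier results of these data known. Alternatives were a replicate block, GC and length correction with and without that block, other filters, pseudocounts, scalings and moderation, and each library left out. The values of some list genes are not reported here. Ratios that need Gas6 were not computed. RefSeq promoters matched all 6 members. Python 3.11.15, numpy 2.4.6, pandas 2.3.3 and scipy 1.17.1 did the rest.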

Additional observations from a re-analysis of the deposited data

How the results depend on the processing

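Of 12222 genes, 10 were called, and 6 to 18 with each library left out in turn (6 without GCH1-KD replicate 2 or 3, 18 without negative control replicate 2). A block for the replicate number left 0 genes called by limma, and 0 with the GC and length trend removed as well, while 1330 and 1414 had an unadjusted p under 0.05. The block rests on shared numbers alone: deviations of same-numbered libraries correlated at 0.09, 0.06 and 0.09, and every library matched its own number best, which is no part of the design. Vkorc1, whose values chose the list, ran from -0.89 to -0.78 over the alternatives, given as a description, and was not among the called genes in 3 of 18 fits, those with either block and that without GCH1-KD replicate 2. Vkorc1l1, Ggcx, Pros1 and Axl kept their sign and passed in 0 fits. Mertk, at 0.00 as reported, ranged from -0.03 without negative control replicate 1 to 0.02 with libraries left out; it turned to 0.02 without GCH1-KD replicate 2, 0.00 without GCH1-KD replicate 3, and 0.01 without negative control replicate 2 or 3. A mean of at least 5 FPKM removes Ggcx, Pros1, Axl and Mertk. The Axl to Mertk difference stayed between -0.18 and -0.11. Of 136 list counts, 3 moved, each the loss of Vkorc1. The cause of these differences was not tested. Pros1 rests on the fewest aligned bases.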
